A study of Mus musculus with 12 samples.

Results

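Microglia were followed here through 9 genes that they express and that neurons, astrocytes and oligodendrocytes largely do not, namely Cx3cr1, Csf1r, P2ry12, Tmem119, Aif1, Spi1, Trem2, C1qa and C1qb. The genes were listed by name as microglial genes, with no threshold on their signal, and they are 9 of the 21774 protein-coding genes that were measured in the same way. For each gene, peaks of H3K27ac and H3K27me3 were counted from 5 kb upstream of the transcription start site (TSS) to the gene end in mm10. All 9 could be measured, and no filter on low values was applied. The label rests on what these genes are known for, since the samples hold chromatin of sorted mixtures and no RNA.

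Microglia are the resident macrophages of the brain. They arise from yolk sac progenitors rather than from the neural tube, and in the newborn cortex they are a small minority of the cells. H3K27ac marks active promoters and enhancers, and H3K27me3 is deposited by Polycomb repressive complex 2 on silenced genes, so a gene that is active in a rare cell type of a mixture can carry a weak acetylation peak or none that is called.

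The cells came from cerebral cortex of Gad67-GFP heterozygote pups at postnatal day 2, with tissue pooled over 2 to 3 litters, in which GFP is driven from the Gad67 locus of GABAergic neurons. GFP+ cells (cortical interneurons, CINs) and GFP- cells (non-CINs, a mixture of all other cells) were separated by sorting, and native ChIP was performed for each mark in 2 replicates of each population. Each of the 8 ChIP samples has 1 list of peaks, and the 4 input samples entered through peak calling only. By the gate, microglia belong with the non-CINs, as a minor part of them.

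The H3K27ac lists held 46040 to 62505 peaks and the H3K27me3 lists 36662 to 45081, and in both populations replicate 1 was the longer H3K27ac list. CIN replicate 2 stood apart from the other H3K27ac lists at myeloid genes other than the members, with 12 of 24 promoters marked against 6 or 7, as set out further on. Read numbers were not used, so a gene without a peak is one at which none was called, and it cannot be told apart from a signal too weak for the depth. Peaks 500 bp or less apart were merged before counting and covered length is that of merged peaks. Pairs of values below are given as replicate 1 and then replicate 2. Strength is given as the percentile of a deposited peak's fold enrichment over input within its own list. With 2 replicates in each population, no two-sided exact permutation test across samples can go below p = 0.333. Fewer microglia in a population and less acetylation per microglial cell cannot be told apart in such mixtures.

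Only P2ry12 carried H3K27ac at its promoter in all 4 lists, and its window held most of the peaks of the group. Csf1r had weak intronic H3K27ac in all 4 lists, and Spi1 and C1qb each had short peaks in 1 replicate number of both populations. Cx3cr1, Tmem119, Aif1, Trem2 and C1qa had no H3K27ac peak in any list. H3K27me3 was called at C1qa in all 4 lists and at C1qb in replicate 1 of both populations, and 4 genes carried neither mark in any list.

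**Figure D1:**
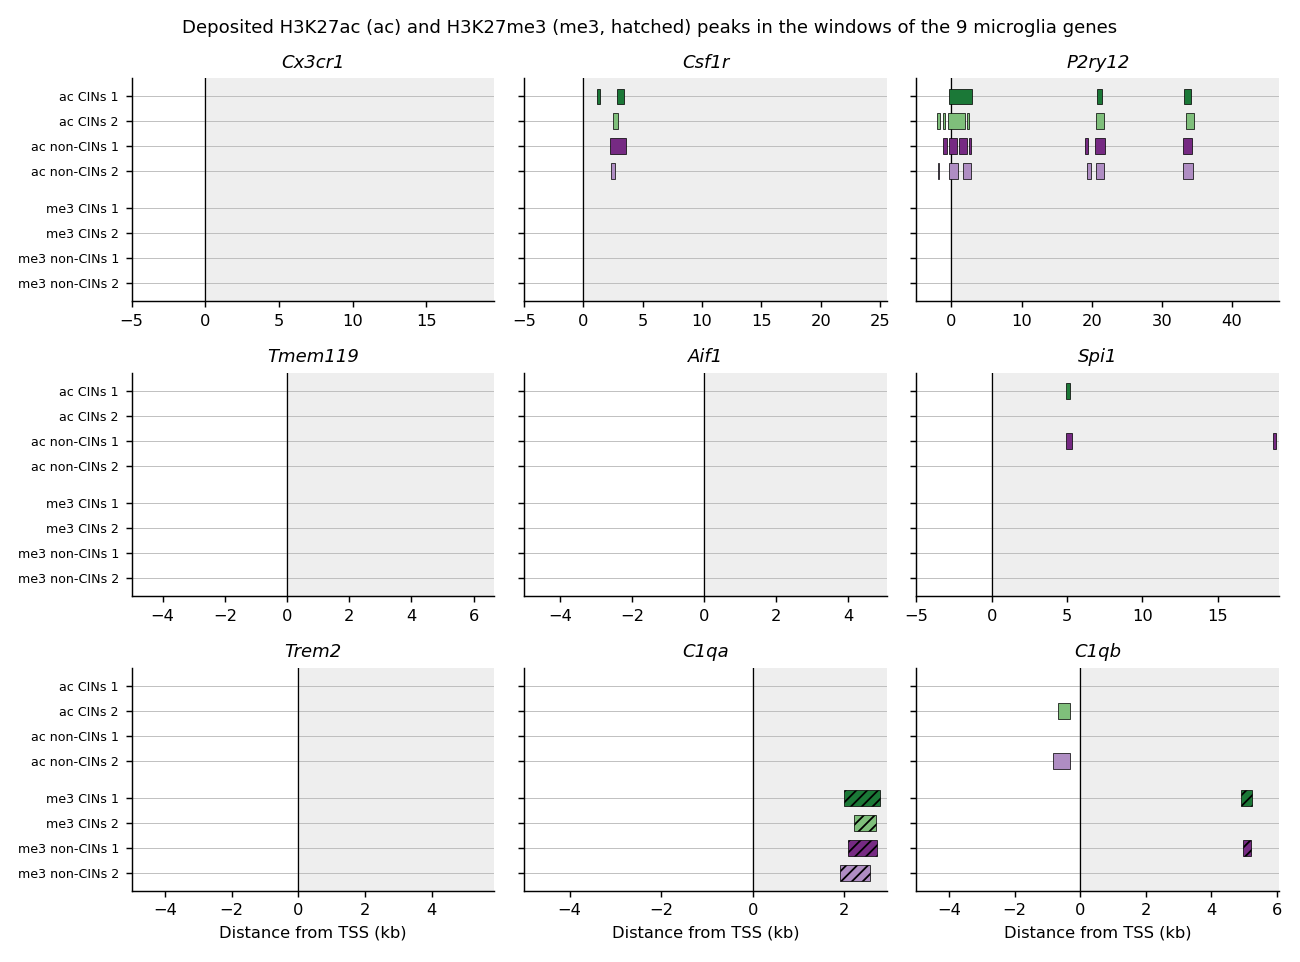
Deposited peaks in the windows of the 9 genes. The x axis is distance from the TSS in kb, grey marks the gene, each row is 1 peak list, and hatched bars are H3K27me3. P2ry12 is the only gene with H3K27ac over its TSS in all 4 lists, and 4 panels (Cx3cr1, Tmem119, Aif1 and Trem2) hold no peak.

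The sequences under the peaks that carry these results are shown first. All were read from GRCm38 (mm10) and are written 5′ to 3′ on the strand of the gene, with the core letters of PU.1 (GAGGAA, or its reverse complement) in capitals. PU.1, the product of Spi1, is the factor that sets up macrophage enhancers. Upstream bases of P2ry12 and C1qb are given because these were the members with an H3K27ac peak within 1 kb of the TSS in any list. The 5 stretches under peaks were chosen after their values were seen, as those shared between lists. None is given for Csf1r.
P2ry12, 250 bases before the TSS, chr3:59262986-59263235, minus strand: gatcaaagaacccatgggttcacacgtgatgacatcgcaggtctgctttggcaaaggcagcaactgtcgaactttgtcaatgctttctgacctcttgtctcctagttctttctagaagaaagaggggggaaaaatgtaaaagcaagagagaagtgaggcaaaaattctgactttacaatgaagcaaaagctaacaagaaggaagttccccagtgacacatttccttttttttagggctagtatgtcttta
P2ry12, intron 1, within the H3K27ac peak shared by all 4 lists, chr3:59241686-59241985, minus strand: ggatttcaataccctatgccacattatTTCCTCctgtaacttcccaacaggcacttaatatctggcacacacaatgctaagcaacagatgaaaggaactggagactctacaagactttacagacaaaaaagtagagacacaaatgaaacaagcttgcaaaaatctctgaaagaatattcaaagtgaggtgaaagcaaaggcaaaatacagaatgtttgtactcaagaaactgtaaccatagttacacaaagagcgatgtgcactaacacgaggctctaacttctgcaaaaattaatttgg
C1qb, 250 bases before the TSS, chr4:136886201-136886450, minus strand: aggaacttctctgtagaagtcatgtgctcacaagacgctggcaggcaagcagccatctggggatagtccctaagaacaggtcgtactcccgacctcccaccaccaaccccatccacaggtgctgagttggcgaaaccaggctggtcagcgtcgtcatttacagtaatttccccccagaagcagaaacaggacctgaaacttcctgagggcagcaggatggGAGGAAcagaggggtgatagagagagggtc
C1qb, within the H3K27ac peak of replicate 2 of both populations, chr4:136886534-136886833, minus strand: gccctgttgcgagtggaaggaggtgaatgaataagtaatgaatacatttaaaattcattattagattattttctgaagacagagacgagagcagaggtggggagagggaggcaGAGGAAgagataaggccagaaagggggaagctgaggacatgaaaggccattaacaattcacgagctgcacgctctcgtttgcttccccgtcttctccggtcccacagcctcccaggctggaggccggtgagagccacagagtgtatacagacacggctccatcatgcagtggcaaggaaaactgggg
Spi1, intron 2, the H3K27ac peak shared by replicate 1 of both populations, chr2:91101632-91101879, plus strand: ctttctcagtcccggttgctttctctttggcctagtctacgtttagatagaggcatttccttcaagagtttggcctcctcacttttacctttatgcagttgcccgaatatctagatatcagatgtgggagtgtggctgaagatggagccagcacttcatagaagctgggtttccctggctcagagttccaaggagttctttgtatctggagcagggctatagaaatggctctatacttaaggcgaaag
Spi1, far upstream, within the H3K27ac peak shared by 3 lists, chr2:91082655-91082954, plus strand: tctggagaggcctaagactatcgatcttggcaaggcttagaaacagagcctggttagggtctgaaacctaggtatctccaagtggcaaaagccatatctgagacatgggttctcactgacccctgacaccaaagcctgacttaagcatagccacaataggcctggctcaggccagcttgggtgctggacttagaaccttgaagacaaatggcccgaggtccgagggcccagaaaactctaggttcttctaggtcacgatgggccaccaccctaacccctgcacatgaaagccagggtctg
C1qa, coding part of exon 3, within the H3K27me3 peak shared by all 4 lists, chr4:136896307-136896606, minus strand: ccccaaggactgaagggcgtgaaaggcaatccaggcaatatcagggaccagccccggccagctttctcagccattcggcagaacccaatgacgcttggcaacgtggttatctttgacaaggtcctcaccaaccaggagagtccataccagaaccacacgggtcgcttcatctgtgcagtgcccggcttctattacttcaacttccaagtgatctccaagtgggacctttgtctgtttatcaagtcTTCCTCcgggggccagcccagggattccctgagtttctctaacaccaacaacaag

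The PU.1 core occurred once (1 match) in the P2ry12 intronic stretch, the C1qb upstream bases, the C1qb peak and the C1qa stretch, and 0 times in the P2ry12 upstream bases and in both Spi1 stretches. Among all promoters of 250 bases, 22.3% held it, a share to be read beside the upstream bases only. No share was computed for stretches under peaks, which differ in length and place. In the 250 bases before the TSS the PU.1 core was found in Tmem119, Aif1, Spi1, Trem2 and C1qb. It was not found there in Cx3cr1, P2ry12 or C1qa, with Csf1r left out. Of the genes with the core there, only C1qb had an H3K27ac peak within 1 kb of the TSS, and P2ry12, the gene with a promoter peak in every list, lacked it. The RUNX core TGTGGT, present in 12.5% of all promoters, was found in Cx3cr1 and C1qa, and the IRF letters AANNGAAA, present in 20.4%, in P2ry12 and Aif1, again on both strands. The 3 patterns can overlap each other, and a match of letters describes the sequence only. The median CpG count of the 8 promoters was 4, against 10 over all 21774 promoters.

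P2ry12 (chr3:59216271-59262985), the purinergic receptor by which microglial processes find ADP released at injury, had the broadest signal of the group. In CINs its window had 4978 bp of H3K27ac in 3 merged peaks in replicate 1 and 6234 bp in 4 merged peaks in replicate 2. In non-CINs it had 7090 bp in 4 merged peaks in replicate 1 and 5759 bp in 6 merged peaks in replicate 2. The populations overlapped, since the second CIN value lay above the lower non-CIN value, and the means were 5606 ± 888 bp in CINs and 6424.5 ± 941 bp in non-CINs (SD, n = 2), with an exact permutation p of 0.667. Without merging the lengths were 4978 and 5510 bp in the CIN lists, against 6098 and 5759 bp in the non-CIN lists, so that both non-CIN values were then higher.

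The acetylation of P2ry12 fell in 3 places. Around the TSS, the deposited peak ran from -0.381 to 2.88 kb in CIN replicate 1, from -0.475 to 1.87 kb in CIN replicate 2, from -0.290 to 0.749 kb in non-CIN replicate 1 and from -0.312 to 0.911 kb in non-CIN replicate 2. The CIN peaks were thus the longer ones, at 3266 and 2347 bp against 1040 and 1224 bp, but the signal around the TSS was called in pieces in the other 3 lists. Both non-CIN replicates had further peaks in intron 1 up to 2.85 kb after the TSS, and CIN replicate 2 had one of 383 bp from 2.15 to 2.53 kb. The same 3 lists also had 1 or 2 short peaks between -2.05 and -0.637 kb, and CIN replicate 1 had none. An intron 1 peak at about the place of the printed stretch was called in all 4 lists, with 722 bp common to all of them, and it was among the strongest at this gene, at percentiles 66.1 and 65.97 in the CIN lists, against 71.9 and 67.6 in the non-CIN lists. Another intron 1 peak, between 33.0 and 34.5 kb, was also present in all 4 lists, at percentiles from 47.9 to 73.9. A weak peak between 19.1 and 19.8 kb was called in both non-CIN replicates and in neither CIN replicate, at percentiles 4.62 and 13.98.

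P2ry12 lies inside Med12l, a gene on the opposite strand that encodes a subunit of the Mediator kinase module, and a Med12l exon falls within the printed upstream bases. Med12l itself had an H3K27ac peak over its TSS in all 4 lists, and its window, which includes that of P2ry12, had 9981 and 11495 bp of H3K27ac in the CIN lists, against 14387 and 10332 bp in the non-CIN lists. Which of the 2 genes the peaks belong to was not tested. The nearest TSS of another gene to any P2ry12 peak was that of P2ry13, 17602 bp away.

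Csf1r, on chromosome 18, the receptor tyrosine kinase on which microglia depend for survival, had H3K27ac in intron 2 only, the intron known to hold a macrophage enhancer of this gene. Its window had 905 and 462 bp in the CIN lists, against 1310 and 362 bp in the non-CIN lists, and the replicates of each population differed more than the populations did (means 684 ± 313 bp and 836 ± 670 bp, SD, n = 2, exact permutation p = 1). The strongest peak stood at percentiles 23.2 and 24.7 in the CIN lists, against 38.8 and 5.59 in the non-CIN lists, so these were weak peaks in every list. They began 1.12 kb or more after the TSS, and the 5 deposited peaks ended at most 3.58 kb after it. The TSS itself carried no peak, and the nearest TSS of another gene was that of Pdgfrb, 61540 bp away at its closest.

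Spi1 (chr2:91082374-91115759 with its longest transcripts), which encodes PU.1, had peaks in replicate 1 of both populations only. The intron 2 peak began at the same base in both, 4.95 kb after the TSS, with 248 bp in CINs and 395 bp in non-CINs. At percentiles 83.5 and 86.8 these short peaks had the highest percentiles of any H3K27ac peak in the 9 windows. Non-CIN replicate 1 also had a 223 bp peak in exon 5 at percentile 72.1, which lay 2607 bp from the TSS of the next gene, Mybpc3. Replicate 2 had 0 bp in both populations.

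A search of the flanks, from 20 kb upstream of the TSS to 20 kb past the gene end, was added after the values of the windows were seen. It found H3K27ac upstream of Spi1 near the start of its longer transcripts, a region known to hold the upstream enhancer that drives Spi1 in myeloid cells. CIN replicate 2 had a 440 bp peak from -14.1 to -13.7 kb at percentile 46.2, beside 4 others between -14.6 and -9.51 kb. Non-CIN replicate 1 had a 736 bp peak from -14.4 to -13.7 kb at percentile 19.4, beside 3 others, of which that from -13.4 to -13.03 kb was the strongest at percentile 49.5. Non-CIN replicate 2 had a single upstream peak, a 346 bp peak from -14.03 to -13.7 kb at percentile 9.76. CIN replicate 1 had none there, its only upstream peak lying from -18.5 to -17.6 kb, where non-CIN replicate 1 had one too. The peaks near -14 kb were thus shared by 3 of the 4 lists, while the intron 2 peak was called in the replicate 1 lists only.

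C1qb and C1qa encode chains of C1q, the complement protein that tags synapses for microglia, and sit next to each other with C1qc, at chr4:136880126-136886200 and chr4:136895916-136898844. C1qb had H3K27ac in replicate 2 of both populations only, with 364 bp in CINs at percentile 42.8 and 522 bp in non-CINs at percentile 19.3. The CIN peak ran from -0.665 to -0.302 kb and the non-CIN peak from -0.819 to -0.298 kb, so both lay just upstream of the TSS. C1qa had no H3K27ac peak, and its nearest one in replicate 2 was this C1qb peak, 11.98 kb from its TSS in CINs and 11.8 kb in non-CINs.

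**Figure D2:**
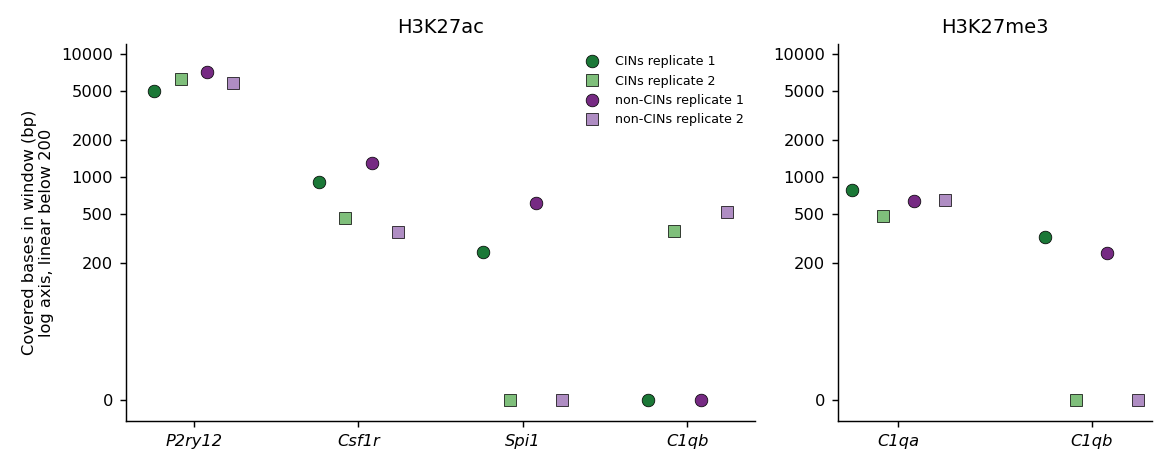
Covered bases in the window for each gene with a peak, H3K27ac on the left and H3K27me3 on the right, on a log axis that is linear below 200 bp. Each point is 1 peak list, with circles for replicate 1 and squares for replicate 2. P2ry12 lies between 4978 and 7090 bp, and the zeros of Spi1 and C1qb follow the replicate number and not the population.

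No H3K27ac peak was called in any of the 4 lists for 5 of the 9 genes (55.6%), against 34.2% of all protein-coding genes and 32.2% of the 13379 genes whose windows were as long as those of the members. Cx3cr1 (chr9:120048683-120068296), the fractalkine receptor, had its nearest H3K27ac peak 42.0 kb from the TSS in all 4 lists. Tmem119 (chr5:113793729-113800396), a membrane protein used to tell microglia from other macrophages, had it 26.5 to 26.7 kb away. Aif1 (chr17:35170986-35176083), which encodes the actin-binding protein Iba1, had it 9.25 to 9.68 kb away, beside the Prrc2a promoter, where the peak stood at percentile 98.4 or higher in every list. One of the strongest peaks of each list was thus called within 10 kb of the Aif1 TSS. A strong peak nearby does not show whether a weak one at Aif1 could be called.

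Trem2 (chr17:48346401-48352276), the lipid-sensing receptor that signals through Tyrobp, was the member whose nearest H3K27ac peak differed in place between the populations. It was 61.8 and 61.7 kb from the TSS in CINs and 16.8 and 16.9 kb in non-CINs. The closer peak was short in both non-CIN replicates, 343 bp at percentile 0.628 and 249 bp at percentile 39.7, and lay 3307 and 3340 bp from the TSS of Treml1. It was not called in either CIN list. This difference was noticed in the flank search and has no test behind it.

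**Figure D3:**
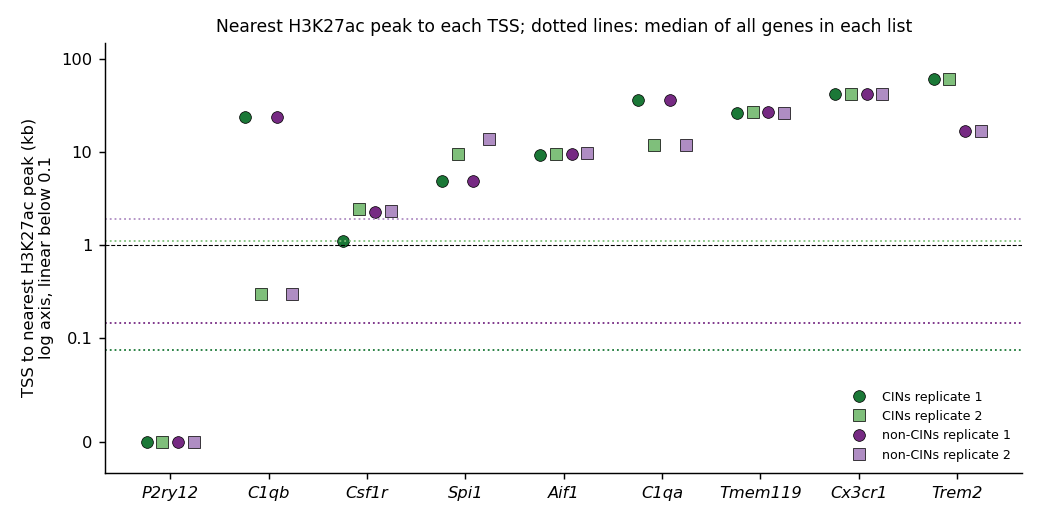
Distance from each TSS to the nearest H3K27ac peak in kb, on a log axis that is linear below 0.1 kb, with 1 point for each list. The dashed line marks 1 kb and dotted lines the median of all genes in each list (0.089 to 1.90 kb). All points of Aif1, C1qa, Tmem119, Cx3cr1 and Trem2 lie above 9 kb.

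Read over the group, an H3K27ac peak in the window in both replicates was found for 2 of 9 genes in CINs (22.2%) and 2 of 9 in non-CINs, Csf1r and P2ry12 in each case, against 58.4% and 57.4% of all genes. The members' count depended on the gene model and the peak threshold, with 4 of 9 in each population on GENCODE vM21 gene records and 1 of 9 in each at -log10 q of at least 4, for which no share of all genes was computed. A peak within 1 kb of the TSS in both replicates was found for P2ry12 alone in each population (11.1%), against 49.3% and 48.5% of all genes. The median distance from the TSS to the nearest H3K27ac peak was 23.8 and 9.57 kb in the CIN lists and 16.8 and 11.8 kb in the non-CIN lists, where the median of all genes was 0.089, 1.12, 0.146 and 1.90 kb in the same order. The share of the windows' bases that was covered did not stand apart in the same way, from 3.36% in CIN replicate 1 to 4.94% in non-CIN replicate 1, against 3.16 to 4.21% over all genes, and most of it was P2ry12. The 32 deposited H3K27ac peaks in the 9 windows had a median percentile of 45.3, and 0 of them passed percentile 90.

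By the rule of both replicates, no member separated the populations with peaks merged at 500 bp. Covered length of H3K27ac was higher in non-CINs in both replicates for 0 of 9 genes and higher in CINs in both for 0 of 9, where 19.5% and 18.9% of all genes were. Both non-CIN values lay above both CIN values for 0 of 9 genes, against 12.3% of all genes. In these windows only P2ry12 and Csf1r had a peak in both replicates of a population, so these rules could call no other member. The exact permutation p was 0.667 for P2ry12 and 1 for each of Csf1r, Spi1 and C1qb, in a design where none could have passed 0.05. In each of these 4 genes the values of the populations overlapped. Within replicate 1 alone, P2ry12, Csf1r and Spi1 had more covered bases in non-CINs, and within replicate 2 alone only C1qb did, while P2ry12 and Csf1r had more in CINs. For P2ry12 the direction in replicate 2 turned to the non-CINs without merging, so that 1 of 9 genes was then higher in non-CINs in both replicates, as also with 1 kb merging and in the gene body only. With GENCODE vM21 gene records 1 member was higher too, Cx3cr1.

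H3K27me3 was rare at the members. C1qa carried it in all 4 lists, with 782 and 486 bp in the CIN lists, against 636 and 647 bp in the non-CIN lists (means 634 ± 209 bp and 642 ± 7.78 bp, SD, n = 2, exact permutation p = 1). These peaks lay over exon 3 and the end of intron 2, between 1.91 and 2.78 kb after the TSS, and not at the promoter. Their strength followed the replicate, at percentiles 26.1 and 15.6 in replicate 1 of CINs and non-CINs and at 81.5 and 67.9 in replicate 2. C1qb had 328 bp in CINs and 243 bp in non-CINs in intron 2 in replicate 1, at percentiles 8.35 and 38.3, and 0 bp in replicate 2.

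The C1q genes stood at the edge of a longer stretch of H3K27me3. In the flank search, peaks from -15.2 to -5.84 kb of the C1qa TSS, outside its window, were called in all 4 lists, the strongest at percentiles 83.4 and 91.2 in the CIN lists, against 82.4 and 92.2 in the non-CIN lists. In every list the window peaks of C1qa and C1qb had lower percentiles than this. Whether they belong to the C1q genes or to that stretch was not tested.

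A window peak of H3K27me3 in both replicates was found for 1 of 9 genes in CINs and 1 of 9 in non-CINs, against 22.3% and 23.5% of all genes, and a promoter peak for 0 of 9 in each, against 12.6% and 12.5%. The covered length was higher in non-CINs in both replicates for 0 of 9 (9.63% of all genes), higher in CINs for 0 of 9 (6.19%), and 0 of 9 had both non-CIN values above both CIN values (4.26%). Only C1qa had a window peak in both replicates of a population, so these rules could call no other member. No H3K27me3 peak was called in any list for 7 of 9 genes (77.8%), against 61.1% of all genes. Neither mark was called in any of the 8 lists for Cx3cr1, Tmem119, Aif1 and Trem2 (44.4%), against 24.3% of all genes and 20.7% of genes with windows of like length.

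The same question was asked of 24 other genes of microglia and other myeloid cells. An H3K27ac peak within 1 kb of the TSS in both replicates was called for 4 of 24 in CINs (16.7%; Sall1, Olfml3, Cd53 and Hpgds) and for 5 of 24 in non-CINs (20.8%; Sall1, Olfml3, Tyrobp, Laptm5 and Hpgds). Sall1, a transcription factor of microglia that neural progenitors also use, had the longest covered length of the 24, with 16017 and 14361 bp in its window in the CIN lists, against 16037 and 16005 bp in the non-CIN lists. Hpgds, the haematopoietic prostaglandin D synthase, had 2456 and 2006 bp in the CIN lists, against 1756 and 1933 bp in the non-CIN lists. Olfml3, a secreted glycoprotein gene of microglia, had 2164 and 1063 bp in the CIN lists, against 1059 and 673 bp in the non-CIN lists.

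Tyrobp, the adaptor through which Trem2 signals, had 0 and 1988 bp in the CIN lists, against 416 and 713 bp in the non-CIN lists. Laptm5, a lysosomal protein of blood cells, had 0 and 878 bp in the CIN lists, against 244 and 305 bp in the non-CIN lists, and Cd53, a leukocyte tetraspanin, 535 and 856 bp in the CIN lists, against 0 and 301 bp in the non-CIN lists. In each of these 3 genes the highest value was that of CIN replicate 2. Siglech, Fcrls, C1qc, Itgam, Fcer1g, Adgre1, Selplg and Itgb2 had no H3K27ac peak in any list, which is 8 of 24 (33.3%), near the 34.2% of all genes. Covered length was higher in CINs in both replicates for 6 of 24 (25%, Olfml3, Ptprc, Cd53, Cd68, Ly86 and Hpgds, against 18.9%) and higher in non-CINs in both for 2 of 24 (8.33%, against 19.5%). These lengths are of whole windows. Outside CIN replicate 2 the nearest peak lay 15.7 to 26.4 kb from the Ptprc TSS and 31.9 to 32.7 kb from the Ly86 TSS. Cd68 had a promoter peak in CIN replicate 1 only, at percentile 11.9. With only peaks of -log10 q of at least 4 the counts higher in CINs and in non-CINs were 3 and 3. Within replicate 1 alone 7 of 24 were higher in CINs and 5 in non-CINs, and within replicate 2 alone 12 and 2. No share of all genes was computed for these filtered and single-replicate counts. Irf8, a partner of PU.1 and named after its values were seen, carried strong H3K27me3 in all 4 lists, with 3379 and 5185 bp in the CIN lists, against 3563 and 5171 bp in the non-CIN lists at percentiles 96.3 to 98.8. It also had a 1042 bp H3K27ac peak over its TSS in non-CIN replicate 1, at percentile 60.3, and in no other list.

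**Figure D4:**
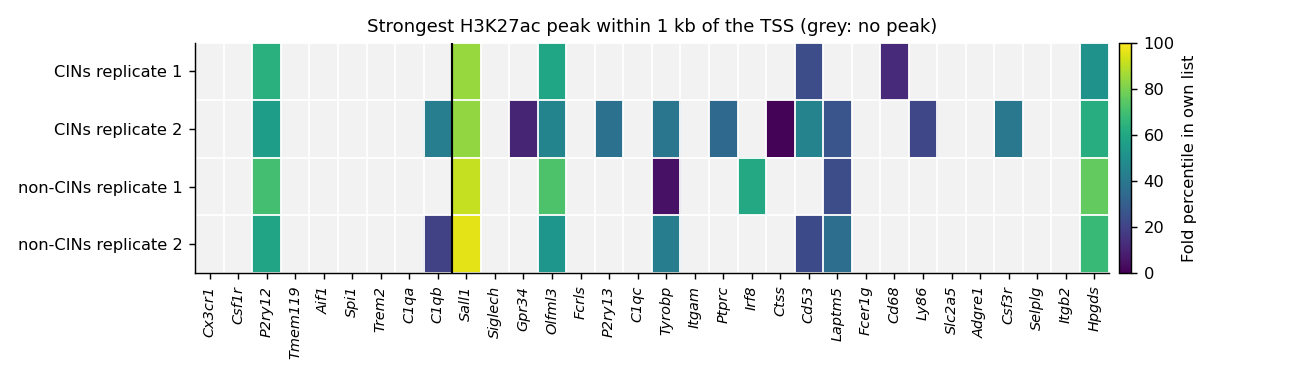
Strongest H3K27ac peak within 1 kb of the TSS of the 9 microglia genes (left of the line) and of other myeloid genes, by list, coloured by its fold percentile within that list, with grey for no peak. CIN replicate 2 has a peak at more of the other myeloid genes than any other list.

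CIN replicate 2 stood apart at these genes. A promoter H3K27ac peak was called there for 12 of the 24 (50%), against 6 of 24 in CIN replicate 1, 7 of 24 in non-CIN replicate 1 and 6 of 24 in non-CIN replicate 2. Over all genes the shares were 49.8% in that list and 54.2%, 53.3% and 49% in the other 3, so it was not the list with most promoters called. A promoter peak in CIN replicate 2 and in no other list was called for 39 of all genes (0.179%), and 6 of the 24 were among them, namely Gpr34, P2ry13, Ptprc, Ctss, Ly86 and Csf3r. In CIN replicate 1, non-CIN replicate 1 and non-CIN replicate 2, 396, 266 and 24 genes had a promoter peak in that list alone, and 1, 1 and 0 of the 24 were among those. This pattern was noticed in these data, and the 6 genes are named after their values were seen.

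The 6 promoters held 8 deposited peaks, with 2 each at Ptprc and P2ry13. They were short and weak, from 200 to 576 bp with percentiles from 0.466 (Ptprc) to 40.1 (Csf3r) and -log10 q from 2.60 to 4.98. The other 33 genes of this set include Fcgr3, an Fc receptor, Nlrp3, the inflammasome sensor, the chemokine gene Ccl3, C3ar1, the receptor for C3a, and Cd86, a costimulatory molecule, and also the neuronal genes Pcdh20 and Slitrk6 and the clotting factor gene F9. The strongest peak was that of C3ar1, with 786 bp at percentile 72.0. Counted once for each gene, the peaks at the 39 promoters numbered 43, with a median length of 274 bp and a median percentile of 24.5. In this count H2-T22 and Gm6034 have a peak with the same values. None of the 9 members had a promoter peak in this list alone, and among them the list shared its C1qb peak with non-CIN replicate 2 and its upstream Spi1 peak with both non-CIN lists. The cause was not tested, and by the gate GFP+ cells should hold no microglia.

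Other cells of blood origin were looked for in the same way. Of 10 genes of border macrophages and monocytes and 10 of lymphocytes, 0 had a promoter H3K27ac peak in any list. Of 10 liver genes, chosen as genes that no cortical cell uses, 1 had one in each CIN list (Fga) and 0 in the non-CIN lists. The liver list was not free of strong H3K27ac peaks. The Fga window had 4714 and 2697 bp in the CIN lists, with top percentiles of 86.9 and 81.9. Apoa2, named after its values were seen, had a window peak in every list, at percentiles from 65.1 to 91.3. Endothelial and pericyte genes had 2 of 10 in every list (Pdgfrb and Vtn). Among neural lists, a promoter peak was called for 8 or 9 of 10 astrocyte and radial glia genes, 6 or 7 of 8 oligodendrocyte lineage genes and 2 to 4 of 8 projection neuron genes, depending on the list. CIN genes had 8 of 9 in both CIN lists and 1 and 2 of 9 in the non-CIN lists and thus separated the sorted populations.

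**Figure D5:**
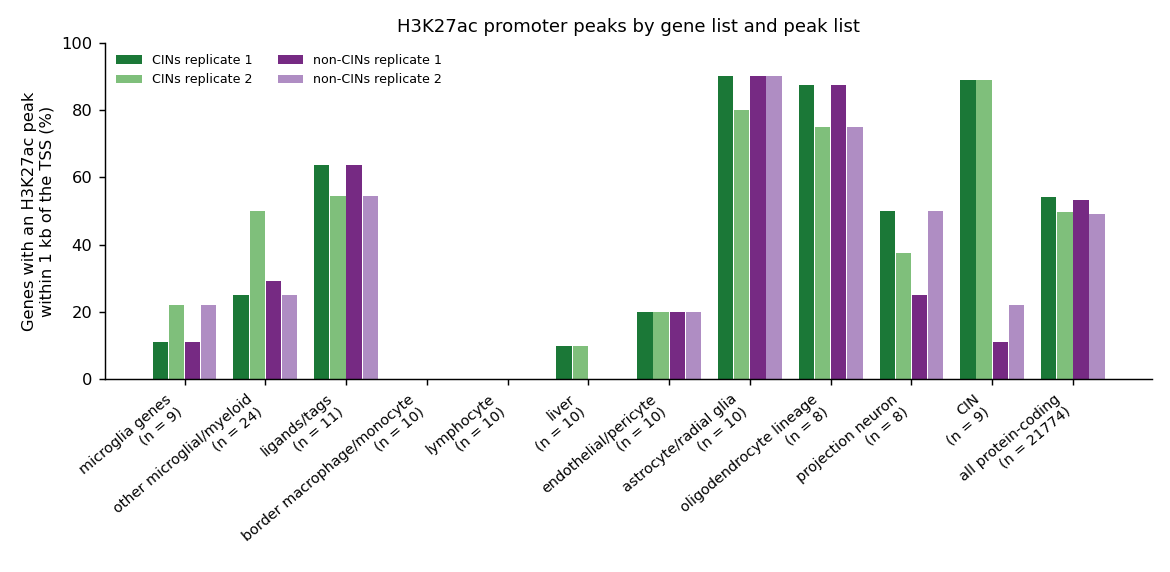
Share of genes (%) with an H3K27ac peak within 1 kb of the TSS, for each list of genes and each of the 4 peak lists. The microglia genes stand at 11.1 or 22.2%, all protein-coding genes at 49 to 54.2%, and the other myeloid genes at 50% in CIN replicate 2 alone.

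A list of 11 ligands and tags that act on microglia was measured beside the members. Some of them bind products of the members (Cx3cl1, Csf1, Il34, Apoe and Clu), and the others act through receptors outside the 9 or, for C3 and C4b, after C1q. Of the 11, 6 had a promoter H3K27ac peak in both replicates of CINs and the same 6 in both of non-CINs (54.5%), namely Csf1, Apoe, Clu, Tgfb2, Cd200 and Cd47, a share near that of all genes. Covered length was higher in non-CINs in both replicates for 5 of 11 (45.5%, Csf1, Apoe, Clu, Tgfb2 and Cd47, against 19.5% of all genes), and higher in CINs in both for 2 of 11 (18.2%, Tgfb1 and Cd200, against 18.9%). At -log10 q of at least 4 the counts higher in non-CINs and in CINs were 5 and 0. With lists of equal length they were 5 and 1, and where no overlap of the values was allowed, 4 and 1. Il34, C3 and C4b had no H3K27ac peak in any list.

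Csf1, a ligand of Csf1r, had 3382 and 2363 bp of H3K27ac in the CIN lists, against 3918 and 4580 bp in the non-CIN lists, while Il34, its other ligand and a neuronal product, had 0 bp in every list. Apoe and Clu, apolipoproteins bound by Trem2, had 2112 and 2494 bp and 2721 and 2373 bp in CINs, against 4814 and 4343 bp and 4669 and 4596 bp in the non-CIN lists. For Csf1, Apoe and Clu both non-CIN values thus lay above both CIN values, as they did for 12.3% of all genes, and p = 0.333 is the smallest an exact permutation test can give there. Cx3cl1, the ligand of Cx3cr1, had H3K27ac in replicate 1 only, with 1463 bp in CINs and 845 bp in non-CINs, and H3K27me3 in 3 lists, with 0 and 618 bp in the CIN lists, against 450 and 887 bp in the non-CIN lists.

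Tgfb2 had 9391 and 6763 bp in the CIN lists, against 13940 and 14969 bp in the non-CIN lists, also without overlap. Tgfb1, the cytokine that keeps the microglial state, was marked otherwise, with 6360 and 7182 bp of H3K27me3 in the CIN lists, against 6398 and 6185 bp in the non-CIN lists at percentiles 96.0 to 97.2, and 240 and 233 bp of H3K27ac in CINs and 0 bp in non-CINs. Cd200 and Cd47, surface signals by which neurons restrain microglia, had 1830 and 1252 bp and 5364 and 4150 bp of H3K27ac in CINs, against 1562 and 802 bp and 5708 and 5130 bp in the non-CIN lists. C3 and C4b, the complement components that act after C1q, carried neither mark in their windows in any list.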

How the data were processed

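The deposited lists hold broad peaks of native ChIP for H3K27ac and H3K27me3. Reads were mapped by the authors to mm10 (BWA, 0.7.15 in the submitters' processing notes), who called peaks with MACS2 (2.2.7 in those notes) for each replicate against its matched input. Each deposited peak has a score (a scaled −log10 q), a fold enrichment of ChIP over input, which is a ratio, and −log10 p and −log10 q values computed by the authors' peak caller. Fold enrichment was used only as a percentile within its own list, and the −log10 q value as a filter.

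Peaks 500 bp or less apart were merged, and merged peaks were counted in the window of each of 21774 protein-coding genes of RefSeq GRCm38.p6, whose TSS is that of the curated transcript with the lowest number. A promoter peak lies within 1 kb of the TSS. The counting was tested on simulated peaks, where 200 of 200 planted promoter peaks were recovered among 2262 genes, and checked against bedtools 2.31.1. Python 3.11.15, pandas 2.3.3, SciPy 1.17.1 and pysam 0.24.0 were used.

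Populations were compared within each replicate number, and a gene was called where both replicates had the same sign. The labels do not say that a number marks a shared preparation. The difference between replicates correlated between CINs and non-CINs, with r = 0.286 over 14325 genes for H3K27ac and r = 0.444 over 8340 genes for H3K27me3 (log2 of covered bases plus 1, across genes, which are not independent). The study calls the replicates biological, and each sample is tissue pooled over litters. Which litters entered which replicate is not given in the sources used here.

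Genes named are the 9 members, the 11 ligands and tags, and of the 24 other myeloid genes those with a promoter H3K27ac peak in both replicates of a population or with none in any list. Ptprc, Cd68, Ly86, Irf8, Gpr34, P2ry13, Ctss and Csf3r, and genes outside the lists, were named after their values were seen. A gene of the 24 enters the counts but is not reported by name here. The members and lists were chosen with earlier results of these data known. Alternatives covered merging, peak strength, list length, the windows, the gene model and each replicate left out.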

Additional observations from a re-analysis of the deposited data

How the results depend on the processing

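The count of members with no H3K27ac peak in any list (5) ranged from 4 to 6, and that with neither mark (4) from 3 to 5, over all alternatives, which for these counts were chosen after seeing the data. So were those for the other myeloid promoters, where CIN replicate 2 kept the highest count in each, 9 at −log10 q of at least 4 (4, 5 and 5 in CIN replicate 1, non-CIN replicate 1 and non-CIN replicate 2) and 12 with lists of equal length (4, 6 and 6). No share of all genes was computed under these 2 settings, so the counts have no background beside them. Of 218 alternative values for the members and the other myeloid genes, 178 stayed within 1.5 times the reported count.

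The rest moved, by 1 gene in most. At −log10 q of at least 4, windows with H3K27ac fell from 2 to 1 in both populations, windows with H3K27me3 from 1 to 0 in both, the other myeloid promoters in non-CINs from 5 to 3 and those higher in CINs from 6 to 3, while those higher in non-CINs went from 2 to 3. With lists of equal length, H3K27ac windows in CINs and H3K27me3 windows in non-CINs fell to 1 and 0. With GENCODE vM21 records, whose Cx3cr1 and Spi1 start far upstream, H3K27ac windows were 4 and 4, H3K27me3 windows 2 and 3, non-CIN promoters 2, and 1 member (Cx3cr1) was higher in non-CINs for H3K27ac and 2 (Cx3cr1 and Spi1) for H3K27me3. The outermost RefSeq TSS gave 2 H3K27ac promoters, 2 H3K27me3 windows and 1 higher H3K27me3 length in non-CINs. Promoters of 2.5 kb gave 2 and 2 for H3K27ac and 1 and 1 for H3K27me3. Without merging, with 1 kb merging or in the gene body only, 1 member, P2ry12, was higher in non-CINs for H3K27ac. With 1 kb merging, 1 was higher in CINs for H3K27me3 and 1 of the other myeloid genes higher in non-CINs.

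With each replicate left out in turn, counts ranged from 1 to 2 for H3K27ac promoters in CINs and in non-CINs, from 1 to 2 for H3K27me3 windows in each, from 1 to 3 (H3K27ac) and 0 to 1 (H3K27me3) for members higher in non-CINs, and from 0 to 2 for those higher in CINs for either mark. For the other myeloid genes they ranged from 6 to 12 promoters in CINs, 2 to 5 higher in non-CINs and 7 to 12 higher in CINs, CIN replicate 2 giving the 12.

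With no replicate block, 0 of 9 members were higher in either population for either mark, as with it, and the 2 other myeloid genes higher in non-CINs became 0. On the other lists, 241 of 270 alternative values stayed within 1.5 times. The depth behind each list was not used, so weak peaks near the calling threshold, such as those of Csf1r, cannot be given an error.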

Other observations

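Genes of the vessel wall, which is also made of non-neural cells, were counted beside the microglia genes. An H3K27ac peak within 1 kb of the TSS was called for 2 of 10 endothelial and pericyte genes (20%) in every list, and for 1 or 2 of the 9 microglia genes (11.1% or 22.2%). Of the 10 endothelial and pericyte genes, 4 had H3K27me3 within 1 kb of the TSS in both replicates of CINs (Cldn5, Flt1, Kdr and Kcnj8) and 5 in both of non-CINs (the same 4 and Vtn), against 12.6% and 12.5% of all genes. The microglia genes had 0 of 9 in each, and of the 24 other myeloid genes Irf8 alone had it in both replicates of each population. All 10 vessel genes had a window peak of at least 1 mark in some list, and 4 of 9 microglia genes (44.4%) had none of either. For the other myeloid genes this was 5 of 24 (20.8%, Siglech, Fcer1g, Adgre1, Selplg and Itgb2), near the 24.3% of all genes. These genes were named after their values were seen, and the difference between the lists was not tested.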
